A study of Homo sapiens with 9 samples.

Results

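Non-muscle myosin II is a motor that pulls on actin filaments. Its genes are described here in RNA sequencing of a neuroblastoma line and of lines labelled as its TRAP-1 knockdown and overexpression. The 7 genes were the 3 heavy chains MYH9, MYH10 and MYH14 and the light chains MYL6, MYL9, MYL12A and MYL12B. They were selected on membership of this family and on a measured value, since MYH14 stood out by a far lower value in the libraries labelled TRAP-1 knockdown. Of the 7 genes, 6 had values among the 22290 genes of the table, and MYL9 was not analysed here.

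The motor is built from a pair of heavy chains, each carrying 1 essential and 1 regulatory light chain. The heavy chains hold the ATP-driven head and a long tail through which the motors join into bipolar filaments, and the gene of the heavy chain names the isoform, IIA for MYH9, IIB for MYH10 and IIC for MYH14. Phosphorylation of the regulatory light chain by kinases such as ROCK and MYLK switches the motor on and lets filaments form, and myosin phosphatase reverses it. In neural cells these motors act in growth cones, in the shape of the cell body and in division, and IIB is the isoform best known from neurons.

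The study set out to describe the networks that depend on TRAP-1, the mitochondrial relative of the chaperone Hsp90. RNA of IMR-32 cells, an established human neuroblastoma line grown with fetal bovine serum, was sequenced in 9 libraries. Parental cells, given as wild type, had 3 libraries, and so had each of the lines labelled as having TRAP-1 knocked down (KD) or overexpressed (OE). The KD and OE cells had been made earlier, each label stands for 1 line whose origin from a clone or a pool was not stated, and no line with a control vector was among the libraries, so line and TRAP-1 cannot be told apart. Nothing says that the 3 libraries of a group came from separate cultures, so the p-values below measure only the spread between these samples. The values were regularized log2 values (rlog), which are scaled for library size and drawn toward the mean of each gene, so all differences given are differences of shrunken log2 values. Such values do not show how deeply a library was read. Taken back from the log2 scale they summed to between 34928732 and 35211774 per library.

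TRAP1 itself, on chr16:3651639-3717553 of GRCh38, was read first as a check of the labels. Its rlog value was 10.67, 10.66 and 10.65 in the 3 parental libraries, 10.79, 10.79 and 10.83 in those labelled KD, and 10.67, 10.63 and 10.74 in those labelled OE. All 3 libraries labelled KD lay above all 3 parental libraries, and those labelled OE overlapped the parental ones. The difference from parental was 0.14 in KD (standard error 0.025, adjusted p = 1.8e-05 from limma, a moderated linear model fitted to all genes). In OE it was 0.018 with a 95% interval of -0.033 to 0.069 (adjusted p = 0.643 from limma), and it became 0.064 once the median shift of each 20-Mb block of the genome was removed (adjusted p = 0.0344, against a range of 0.0344 to 0.999 over all alternatives). TRAP1 RNA thus went against the KD label and was not called higher under the OE label. Other annotated genes overlap 28.5% of its exonic bases. Below, KD and OE are only the names on the libraries, not a state of TRAP-1, and every direction is to be read so.

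The label neuroblastoma was read against 20 marker genes of that tumour, of which 15 had values. ISL1, a transcription factor of sympathetic neurons, was the most abundant, with a mean rlog of 9.29, followed by the neurofilament gene NEFL at 9.24 and by GATA2 at 9.20, while GATA3 was at 7.27 and HAND2 at 6.34. Of the 15, 6 had a mean rlog under 3, among them PHOX2A (1.34), ELAVL3 (1.61), MYCN (2.54), GAP43 (2.604) and TH (2.73), while DBH, DDC, STMN2 and ELAVL4 were not analysed here. The list was thus mixed, with some genes of the sympathetic lineage at low levels in all groups and others not, and the cells are called by the label of the line only. After return from the log2 scale, the 15 genes summed to 2266, 2268 and 2238 in the parental libraries, 2062, 2059 and 2106 in KD, and 2362, 2470 and 2471 in OE. The higher sum in OE was carried by NEFL, whose mean rlog was 9.10 in the parental libraries, 8.98 in KD and 9.63 in OE, while ISL1 (9.37, 9.20 and 9.31) and GATA2 (9.27, 9.14 and 9.19) were lower in both.

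Genes of other cell types were read in the same way. Of 12 fibroblast or mesenchymal markers 11 had values, led by the intermediate filament gene VIM at a mean rlog of 15.89, and their summed linear level was 74225 to 74437 in the parental libraries, 86694 to 87421 in KD and 89120 to 90569 in OE. FN1 (13.83), PRRX1 (12.36), TWIST1 (9.09) and PDGFRB (8.53) followed in mean rlog, while the collagen genes COL1A2 and COL3A1 were at 1.37 and 1.16. The groups differed in VIM, with a mean of 15.72 in the parental libraries, 16.09 in KD and 15.87 in OE, in FN1, with a mean of 13.97 in the parental libraries, 13.01 in KD and 14.52 in OE, and in PRRX1, with 11.70, 12.99 and 12.39. Of 15 epithelial markers 11 had values, led by KRT18 at 12.04, and they summed to 6059 to 6124 in the parental libraries, 6079 to 6308 in KD and 5496 to 5567 in OE. CLDN4 (9.89), KRT8 (8.96) and KRT14 (7.15) followed in mean rlog, while EPCAM (2.58), ESRP1 (2.67), KRT5 (1.46) and OVOL1 (1.09) were low. Mean CLDN4 was 10.10 in the parental libraries, 10.04 in KD and 9.53 in OE, mean KRT14 was 7.54, 6.85 and 7.05, and mean KRT8, which rose, was 8.70, 9.09 and 9.10. Of 9 smooth muscle markers 8 had values, led by SMTN at 11.84, and they summed to 4103 to 4207 in the parental libraries, 4571 to 4658 in KD and 3745 to 3924 in OE. TAGLN followed at a mean rlog of 8.41, while DES (0.27) and CNN1 (1.84) were low. These sums and VIM, FN1, PRRX1, CLDN4, KRT14 and KRT8 moved between the groups alongside the myosin genes, and their part in the differences below was not tested.

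The promoters of the heavy chain genes are shown because these 3 genes, which code for the same part of the motor, had unlike patterns over the libraries. Each is a RefSeq window of 300 bases on GRCh38.p14, from 250 bases before to 50 after a transcription start, written in the direction of the gene. Capitals mark the GC box GGGCGG or its reverse complement CCGCCC, the letters that factors of the Sp family bind, with overlapping matches counted. The windows are chr19:50203372-50203671 on the plus strand for MYH14, chr22:36387918-36388217 on the minus strand for MYH9, and chr17:8630676-8630975 on the minus strand for MYH10. Those of MYH14 and MYH10 lie inside the longer genes of the GENCODE annotation.
MYH14: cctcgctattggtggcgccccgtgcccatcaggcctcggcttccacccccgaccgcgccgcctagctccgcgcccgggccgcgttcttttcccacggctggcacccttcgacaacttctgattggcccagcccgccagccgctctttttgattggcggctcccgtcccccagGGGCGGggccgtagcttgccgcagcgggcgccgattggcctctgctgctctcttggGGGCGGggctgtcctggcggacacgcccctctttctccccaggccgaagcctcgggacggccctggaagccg
MYH9: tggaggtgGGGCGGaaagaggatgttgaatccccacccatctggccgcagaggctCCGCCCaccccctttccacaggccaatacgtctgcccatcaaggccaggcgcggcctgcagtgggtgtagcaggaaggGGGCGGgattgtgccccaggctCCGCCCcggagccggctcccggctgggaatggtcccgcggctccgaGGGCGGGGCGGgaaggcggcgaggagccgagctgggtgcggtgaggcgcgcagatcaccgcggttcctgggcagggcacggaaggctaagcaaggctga
MYH10: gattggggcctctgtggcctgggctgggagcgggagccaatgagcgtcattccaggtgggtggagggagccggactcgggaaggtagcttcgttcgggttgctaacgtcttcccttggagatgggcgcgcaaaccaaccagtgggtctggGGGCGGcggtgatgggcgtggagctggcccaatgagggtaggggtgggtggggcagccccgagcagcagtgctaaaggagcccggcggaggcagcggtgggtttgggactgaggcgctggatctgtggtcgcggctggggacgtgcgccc

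MYH9 held 6 GC boxes, MYH14 held 2 and MYH10 held 1. A GC box occurred in 15786 of 35116 RefSeq promoter windows of that length (44.95%). None of the 3 windows held a CArG box, the motif of serum response factor, which occurred in 454 of the 35116 windows (1.29%), so no overlap of the motifs arose. The share of G and C was 71.7% in MYH14, 70.3% in MYH9 and 67.7% in MYH10, against a median of 58.7% over all windows. These matches describe letters in the windows and nothing about binding.

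MYH14 (ENSG00000105357, chr19:50188186-50310542, plus strand) codes for the heavy chain of isoform IIC. Its rlog value was 10.25, 10.25 and 10.32 in the parental libraries, 8.003, 7.904 and 8.057 in KD, and 10.22, 10.26 and 10.31 in OE. The 3 libraries labelled KD lay far below all others, and the OE libraries overlapped the parental ones. In bulk RNA, fewer cells of a kind that carries the transcript and less transcript per cell cannot be told apart. The difference of KD from parental was -2.28, which left 20.5% of the parental level after return from the log2 scale and was the third largest decrease in rlog of the 22290 genes. This contrast chose the gene and is given without a test. Another annotated gene overlaps 4.40% of its exonic bases.

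MYH9 (ENSG00000100345, chr22:36281280-36388010, minus strand) codes for the heavy chain of isoform IIA, the faster motor next to IIB. Its rlog value was 14.37, 14.35 and 14.39 in the parental libraries, 14.03, 14.05 and 14.07 in KD, and 14.05, 14.06 and 14.11 in OE. The parental libraries were above both other groups, and KD and OE overlapped each other.

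MYH10 (ENSG00000133026, chr17:8474207-8631376, minus strand) codes for the heavy chain of isoform IIB, which stays bound to actin for longer and holds tension. Its rlog value was 12.64, 12.65 and 12.67 in the parental libraries, 13.20, 13.19 and 13.16 in KD, and 13.02, 13.03 and 13.04 in OE. Unlike for MYH9, the parental libraries were lowest, OE between and KD highest, and no library of one group reached into another.

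MYL6 (ENSG00000092841, chr12:56158346-56163496, plus strand) codes for the essential light chain, which wraps the lever arm of the head and steadies it. Its rlog value was 13.05, 12.91 and 12.85 in the parental libraries, 13.02, 13.04 and 13.08 in KD, and 12.94, 12.92 and 12.93 in OE. The parental libraries spread widely, with replicate 1 apart from the others, and overlapped both groups, while KD lay above OE. Of the exonic bases of MYL6, 18.3% are shared with its neighbours MYL6B and SMARCC2, and MYL6B itself, an essential light chain gene next to it, was not analysed here.

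MYL12A and MYL12B lie side by side on chromosome 18 (ENSG00000101608, chr18:3247481-3256236, and ENSG00000118680, chr18:3261479-3278461, both plus strand) and code for near-identical regulatory light chains, the subunit that ROCK and MYLK phosphorylate. Their coding sequences are shown because reads of copies this close could be misassigned. Each line gives the first 90 coding bases of the canonical GENCODE transcript, and capitals mark bases that differ or have no partner in an alignment of the full coding sequences.
MYL12A: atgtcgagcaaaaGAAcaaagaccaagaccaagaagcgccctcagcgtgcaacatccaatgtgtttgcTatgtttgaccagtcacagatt
MYL12B: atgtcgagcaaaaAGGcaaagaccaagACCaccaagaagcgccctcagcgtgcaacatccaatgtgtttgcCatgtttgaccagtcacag

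The coding sequences of the pair were identical at 494 of 516 aligned bases (95.7%). No stretch of 150 bases, the length of a read, was the same in both transcripts (0 of 809 windows of MYL12A). The heavy chains were further apart, at 73.7% for MYH9 and MYH10, 72.3% for MYH9 and MYH14 and 67.3% for MYH10 and MYH14. They also had 0 windows in common. Reads kept after trimming could be as short as 36 bases, and shared stretches below 150 bases were not counted. How well reads of these genes separate was thus not tested.

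The rlog value of MYL12A was 10.73, 10.66 and 10.70 in the parental libraries, 10.57, 10.56 and 10.61 in KD, and 10.69, 10.67 and 10.66 in OE. KD lay just below both other groups, which overlapped. The rlog value of MYL12B was 12.65, 12.67 and 12.63 in the parental libraries, 12.66, 12.62 and 12.61 in KD, and 12.64, 12.64 and 12.63 in OE. All 3 groups of MYL12B overlapped within a range narrower than that of any other member.

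**Figure D1:**
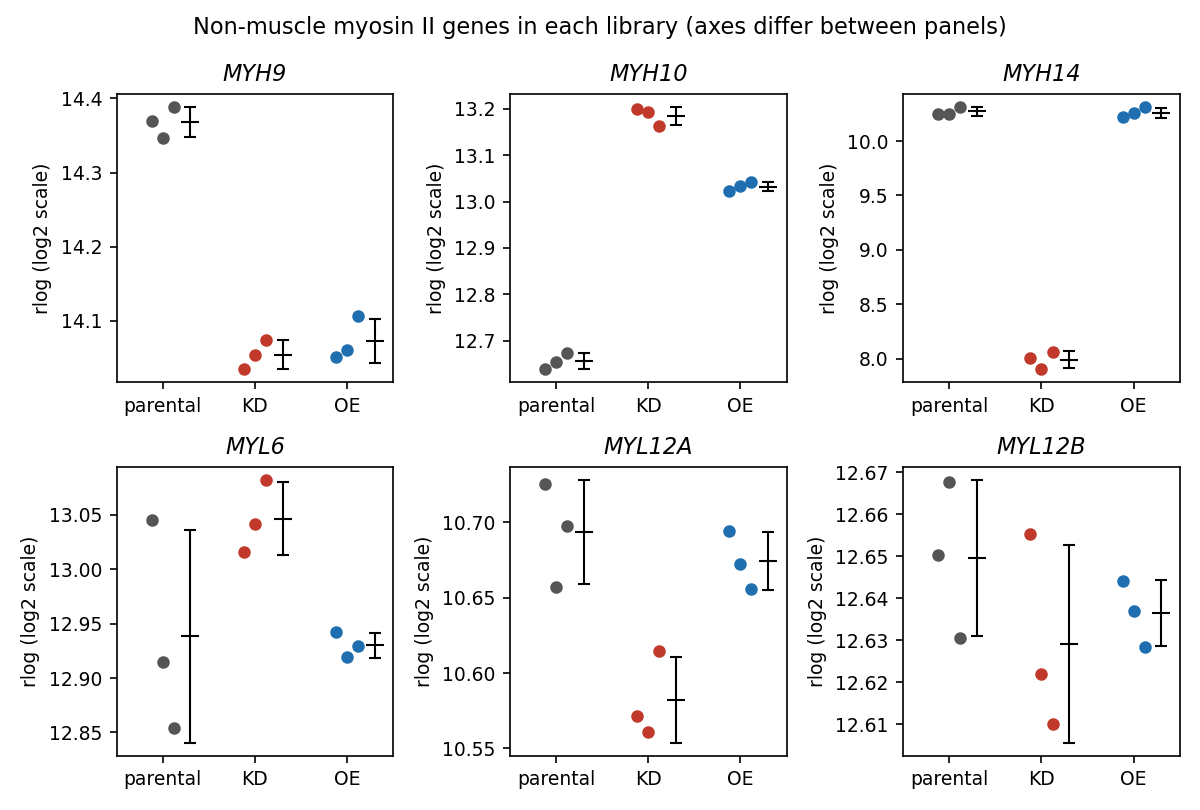
The rlog value (log2 scale, vertical axis) of each of the 6 genes in each of the 9 libraries by group, with the mean and SD of each group (n = 3) as a bar beside the points. The vertical axes differ between panels, and MYH14 spans from 7.90 to 10.32 while MYL12B spans from 12.61 to 12.67.

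The first comparison set the libraries labelled KD against parental, to ask how the cells with the knockdown label differ, and for these genes it is a description. MYH14 differed by the -2.28 given above, MYH9 differed by -0.31 and MYH10 by 0.53. On the linear scale the KD level was 80.4% of parental for MYH9 and 144% for MYH10. The light chains differed less, with 0.11 for MYL6, -0.11 for MYL12A and -0.020 for MYL12B. In 4 of the 6 genes the KD and parental libraries did not overlap, as in 59.2% of all 22290 genes, and nothing is read from this count because the contrast was used to choose them. The value of MYL6 was 0.052 once the median of its 20-Mb block was removed, and the median difference of its neighbours was close to its own, as given below.

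The second comparison set the libraries labelled OE against parental, to ask the same of the overexpression label, and here limma was used with Benjamini-Hochberg adjustment over all 22290 genes. MYH9 fell from 14.37 ± 0.021 to 14.07 ± 0.030 (SD, n = 3), a difference of -0.30 (adjusted p = 2.1e-17 from limma, standard error 0.014). MYH10 rose from 12.66 ± 0.017 to 13.03 ± 0.0098 (SD, n = 3), a difference of 0.38 (adjusted p = 3.3e-19 from limma, standard error 0.015). The decrease of MYH9 and the increase of MYH10 were each seen in 3 of 3 libraries labelled OE against every parental library. They kept sign and call under every alternative setting, with MYH9 between -0.31 and -0.25 and MYH10 between 0.36 and 0.41.

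MYH14, the gene with the low value in KD, was not called in OE, with a difference of -0.011 and a 95% interval of -0.081 to 0.059 (adjusted p = 0.848 from limma). The sign of so small a value was not stable, since it was 0.021 after removal of block medians. The parental libraries of this test were also part of the contrast that chose MYH14. None of the light chains was called. MYL6 differed by -0.0081 (95% interval -0.061 to 0.045), MYL12A by -0.019 (-0.069 to 0.030) and MYL12B by -0.013 (-0.046 to 0.020), with adjusted p-values from limma of 0.852, 0.604 and 0.599. The signs of MYL6 and MYL12B turned under quantile normalization, and all these intervals lie within 0.1 of 0. A missed threshold does not show that the levels were the same.

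Thus 2 of 6 genes were called in OE, where 34.8% of all genes were called. In the same 2 genes the libraries did not overlap, against 43.2% of all genes. These shares are near the background, so the count alone says nothing particular about the family. By direction 1 member was called higher, against 16.9% of all genes, and 1 lower, against 18.0%.

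**Figure D2:**
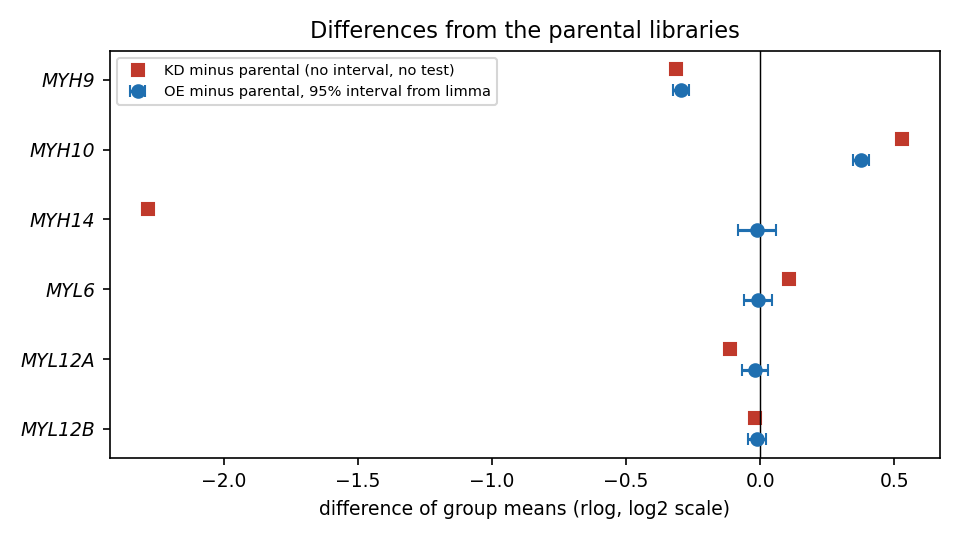
Difference of group means (rlog, log2 scale, horizontal axis) of the 6 genes, with squares for KD minus parental, given without interval or test, and circles for OE minus parental with the 95% interval from limma. MYH9 and MYH10 lie on opposite sides of 0, MYH14 is at -2.28 in KD and -0.011 in OE, and the OE signs of MYL6 and MYL12B turned under quantile normalization.

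Both comparisons use the same parental libraries, so their values are set side by side only. For MYH9 they were -0.31 in KD and -0.30 in OE, and for MYH10 0.53 and 0.38. Between the libraries labelled OE and KD, without a test, the difference was 2.27 for MYH14, 0.019 for MYH9, -0.15 for MYH10, -0.12 for MYL6, 0.092 for MYL12A and 0.0073 for MYL12B. In 4 of the 6 genes, all but MYH9 and MYL12B, the libraries labelled OE and KD did not overlap, as in 54.1% of all genes.

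To compare levels between genes, each value was set per kilobase of exon, and the heavy chains were given as linear shares of their sum. On this scale MYH9 made up most of the heavy chain RNA, with 79.7 ± 0.190% in the parental libraries, 76.3 ± 0.427% in KD and 73.0 ± 0.158% in OE (SD, n = 3). MYH10 held 12.7 ± 0.143%, 21.8 ± 0.459% and 18.49 ± 0.237% in the same order. MYH14 held 7.64 ± 0.110%, 1.87 ± 0.0950% and 8.52 ± 0.121%. The order MYH9, MYH10, MYH14 was the same in all 9 libraries. The shares were not tested, since the genes were selected with MYH14 known to be low in KD and a lower share of 1 gene raises the others. The sum of the 3 heavy chains per kilobase was 83.9% of parental in KD and 89.0% in OE.

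The shares depend on the length used, since the exons of MYH10 together cover 32700 bases and its longest transcript 10573. With the longest transcript, MYH14 had 4.99% in the parental libraries, 1.16% in KD and 5.46% in OE, and MYH10 had 17.0%, 27.8% and 24.4%, so the order of genes and of groups stayed as it was. Of the regulatory light chain RNA per kilobase, MYL12B made up 87.1 ± 0.367% in the parental libraries, 87.8 ± 0.342% in KD and 87.2 ± 0.0900% in OE (SD, n = 3). The parental libraries overlapped both other groups, while KD lay above OE, and MYL12B was the main form in all 9 libraries.

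**Figure D3:**
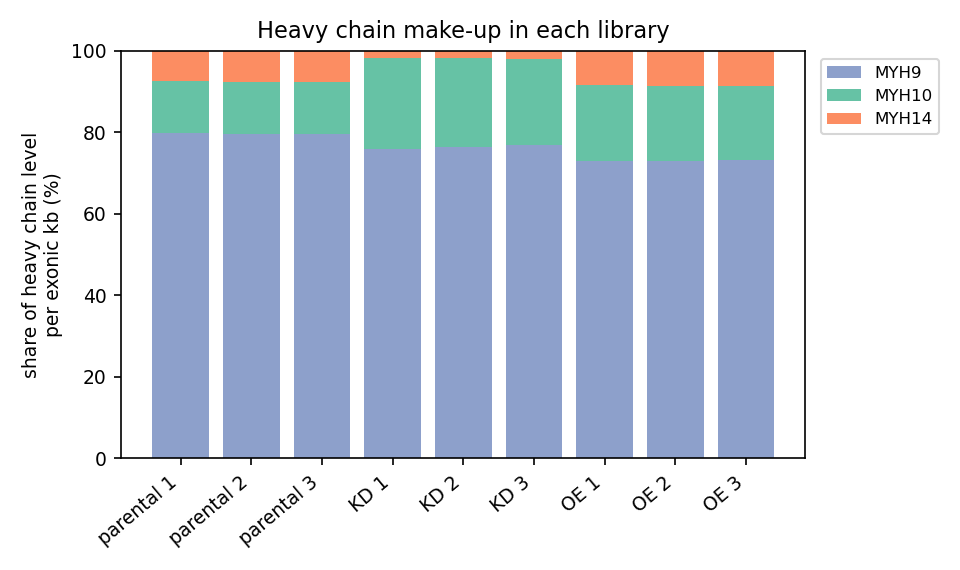
Share of each heavy chain gene (%, vertical axis, from 0 to 100) in the summed heavy chain level per exonic kilobase, as 1 stacked bar for each of the 9 libraries. The MYH14 segment shrinks to 1.76 to 1.94% in the libraries labelled KD from 7.54 to 7.76% in the parental ones, and the MYH10 segment is larger in KD and OE than in parental.

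Members were also placed on the genome, a property that their choice did not use. Within 1 Mb of MYH14 lay 38 genes whose mean rlog was 5 or more, and they had a median difference of 0.061 in KD (0.025 within 2 Mb) and 0.0047 in OE, with 26 higher and 12 lower in KD. The low value of MYH14 was therefore not that of its surroundings as a whole. Single neighbours differed from this median, among them LRRC4B, 293 kb away, with -1.09 in KD and 0.20 in OE. The medians in KD were -0.13 around MYH9 (16 genes), 0.080 around MYH10 (28), 0.099 around MYL6 (41) and 0.032 around MYL12A and around MYL12B (11 each). In OE the same medians were -0.059, 0.024, -0.0070, -0.0052 and -0.0052. MYH9 and the median of its neighbours were thus lower in both comparisons, although 5 of those 16 genes were higher in KD and 7 in OE, and within 2 Mb the median was -0.044 in KD and -0.031 in OE. MYL6 in KD (0.11) was close to the median around it, while MYH10 in both exceeded the median of its own.

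**Figure D4:**
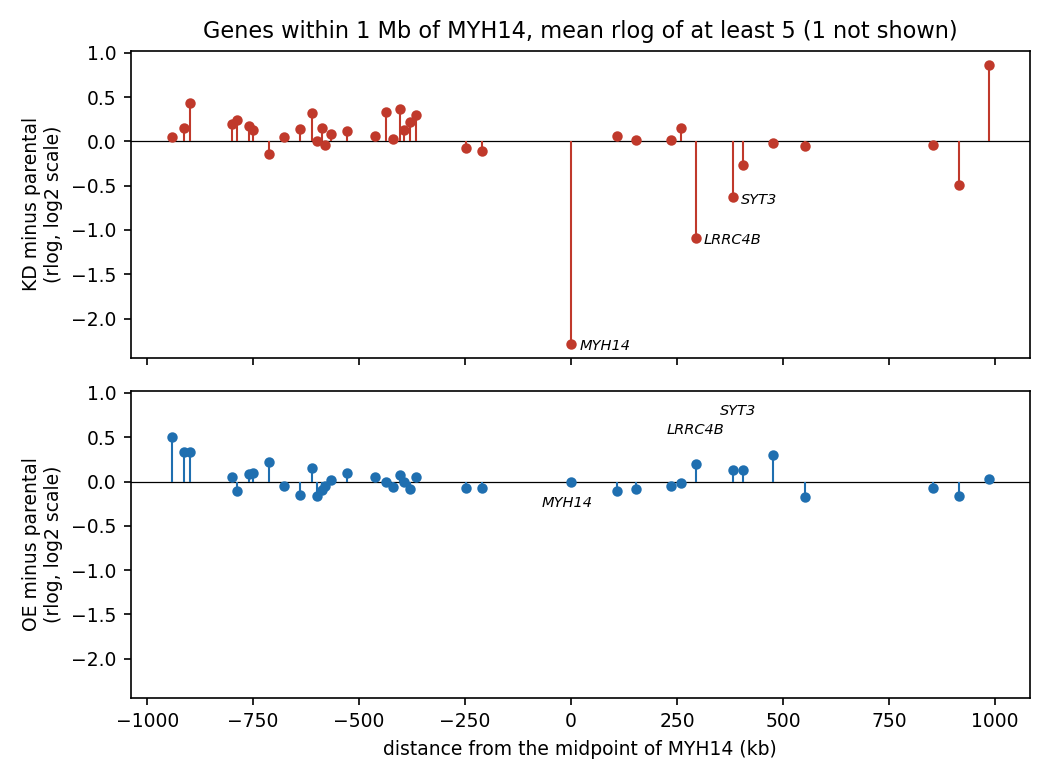
Difference from parental (rlog, log2 scale, vertical axis) of MYH14 and the genes within 1 Mb, 1 of which is not shown, against their distance from its midpoint (kb, horizontal axis), for KD above and OE below. In KD, MYH14 is at -2.28 and LRRC4B at -1.09 among neighbours with a median of 0.061, and the lowest neighbour in OE is at -0.17.

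The genes whose pattern over the 9 libraries was most like that of MYH14 were sought by the root mean square distance between profiles centred on each gene's mean. They were ZNF682 (distance 0.0685), ZNF320 (0.0797) and ZNF83 (0.133), which are zinc finger genes, the long non-coding RNA LINC00665 (0.141) and ADGRL2 (0.153), an adhesion receptor gene. Their correlation with MYH14 lay between 0.991 and 0.999 over 9 libraries that share their groups, so it mainly restates the low value in KD. The difference of KD from parental was -2.22 for ZNF682, -2.17 for ZNF320, -2.05 for ZNF83, -2.57 for LINC00665 and -2.27 for ADGRL2. In OE their differences from parental lay between -0.30 for ADGRL2 and -0.024 for ZNF320. Of these 5 genes 4 lie on chromosome 19, as MYH14 does.

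The genes around the motor were taken from 8 lists with 143 genes, of which 128 had values. In KD 88 of the 128 were called (39 higher and 49 lower, 68.8%), where 53.7% of all 22290 genes were called, 26.9% higher and 26.9% lower. In OE 72 were called (25 higher and 47 lower, 56.2%), where 34.8% of all genes were. The median difference of the 128 genes was -0.025 in KD and -0.015 in OE, beside -0.00051 and 0.00039 over all genes. Most calls were small. A difference over 0.5 in size was reached by 9 of the 128 in KD, where 4.98% of all genes reached it, and by 3 in OE, where 0.897% did.

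Kinases of the regulatory light chain had 17 of 18 genes with values, of which 6 were called higher and 7 lower in KD, and 2 higher and 6 lower in OE. ROCK2, a kinase common in neural tissue, had rlog values of 13.28, 13.32 and 13.32 in the parental libraries, 12.89, 12.85 and 12.85 in KD, and 13.22, 13.23 and 13.20 in OE. Both groups lay below parental, with differences of -0.44 in KD and -0.089 in OE (adjusted p = 1.4e-21 and 2.4e-05 from limma). Its paralog ROCK1 was not called in either (0.029 with adjusted p = 0.283, and 0.041 with adjusted p = 0.164 from limma). Its value in KD was -0.034 without block medians, and in OE the call was made under quantile normalization (adjusted p = 0.0257, range 0.0257 to 0.566 over the alternatives).

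MYLK, the calcium-dependent myosin light chain kinase, fell in KD (-0.29, adjusted p = 9.8e-07 from limma) and was not called in OE (0.032, 95% interval -0.056 to 0.12). CIT, the citron kinase of the cleavage furrow, rose in KD from 12.74 ± 0.020 to 13.21 ± 0.015 (SD, n = 3), a difference of 0.47 (adjusted p = 1.8e-22 from limma), and in OE its value was -0.011 (adjusted p = 0.654), or 0.0010 under quantile normalization. The death-associated kinases DAPK1 and DAPK2 fell in both comparisons, with differences of -0.60 in KD and -0.33 in OE for DAPK1 and of -0.31 and -0.19 for DAPK2 (adjusted p from 2.0e-12 to 0.00251 from limma). The difference of DAPK1 in KD was -0.25 once block medians were removed. The 2 kinase-list genes called higher in OE were CDC42BPA and CALM3.

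Of the myosin phosphatase and its inhibitors, 7 of 8 genes had values, with 2 higher and 2 lower in KD and 0 higher and 2 lower in OE. The catalytic subunit PPP1CB rose in KD by 0.092 (adjusted p = 0.00373 from limma), as did the inhibitor gene PPP1R14C, and PPP1CB was not called in OE (0.042, adjusted p = 0.245). PPP1R12A, the subunit that brings the phosphatase to myosin, was not called, with -0.027 in KD and 0.031 in OE (adjusted p = 0.320 and 0.318 from limma). Its KD value was 0.038 after removal of block medians, and it was called in OE under quantile normalization (adjusted p = 0.0476, range 0.0476 to 0.716). The inhibitor PPP1R14B fell in both, with differences of -0.13 in KD and -0.17 in OE (adjusted p = 3.0e-06 and 3.0e-08). The related targeting subunit PPP1R12C was called lower in both, at -0.074 and -0.081 (adjusted p = 0.0256 and 0.0231 from limma), and the calls were lost under several alternatives, where adjusted p reached 0.293 and 0.198. Other genes overlap 11.9% of the exonic bases of PPP1CB.

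Partners of filament assembly and scaffolding had 20 of 21 genes with values, of which 5 were higher and 8 lower in KD, and 7 higher and 5 lower in OE. The 5 higher in KD were the septin genes SEPTIN6 and SEPTIN11, whose products form filaments that scaffold myosin, with LLGL2, LURAP1 and SVIL. SEPTIN6 rose in both, by 0.39 in KD and 0.53 in OE (adjusted p = 4.3e-12 and 1.1e-14 from limma). SEPTIN11 rose by 0.55 in KD (adjusted p = 3.6e-23 from limma), of which 0.15 remained after removal of block medians, and fell by 0.086 in OE (adjusted p = 1.1e-04), a call lost after that removal (-0.0073, adjusted p = 0.775, the highest over the alternatives). SHROOM2, of the Shroom family that binds ROCK, fell, with differences of -0.13 in KD and -0.38 in OE (adjusted p = 1.1e-06 and 2.3e-16 from limma), and its KD value was -0.063 after removal of block medians, still called. The other genes called lower in OE were LLGL1, CSNK2A1 and SHROOM1.

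The actin filament list held the track on which the motor runs, and all 21 genes had values. In KD 5 were higher and 11 lower, and in OE 4 were higher and 12 lower. TPM1, a tropomyosin that lies along actin and governs myosin access, had rlog values of 12.79, 12.78 and 12.79 in the parental libraries, 11.76, 11.76 and 11.75 in KD, and 12.49, 12.42 and 12.48 in OE. Parental was highest, OE between and KD lowest, with differences of -1.03 and -0.32 (adjusted p = 6.9e-30 and 7.4e-16 from limma). Other genes overlap 22.7% of its exonic bases. TAGLN3, the transgelin of neurons, fell, with differences of -0.46 in KD and -0.65 in OE (adjusted p = 5.3e-13 and 5.1e-16 from limma). Higher in KD were ACTN4, TPM2, TPM4, VCL and ZYX, and among those higher in OE were ACTN4, TPM4 and VCL.

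Serum response factor and its coactivators, which switch on many actin and myosin genes, had 3 of 4 genes with values, and none was called higher. In KD 1 was lower, MRTFA, the coactivator released from actin monomers, at -0.10 (adjusted p = 0.00474 from limma). SRF itself was at -0.046 in KD (adjusted p = 0.0883), and was called there with each library shifted to the same median (adjusted p = 0.0340, range 0.0340 to 0.325). In OE SRF fell by 0.081 (adjusted p = 0.00473 from limma) and MRTFA had -0.087 (adjusted p = 0.0245), a call that some alternatives lost (adjusted p up to 0.114).

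Other myosins served as a comparison within the superfamily. Of 20 genes for muscle myosin II chains 10 had values, with 4 higher and 2 lower in KD, and 1 higher and 2 lower in OE. MYH11, the heavy chain of smooth muscle myosin, was low at 6.10 ± 0.032 in the parental libraries, 6.23 ± 0.069 in KD and 6.35 ± 0.037 in OE (SD, n = 3). It rose by 0.25 in OE (adjusted p = 6.5e-05 from limma) and by 0.13 in KD (adjusted p = 0.0208), where the call was lost under several alternatives (adjusted p up to 0.108). The others higher in KD were MYH15, MYL5 and MYL10, with MYH15 at 0.39 (adjusted p = 4.0e-12) and not called in OE (-0.0042, adjusted p = 0.945).

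MYH13, the heavy chain of eye muscles, fell in both, with differences of -0.096 in KD and -0.36 in OE (adjusted p = 0.00514 and 8.7e-12 from limma). MYH7B fell, with differences of -0.15 in KD and -0.16 in OE (adjusted p = 0.00758 and 0.00557 from limma), and this direction was not stable in KD, where removal of block medians gave 0.19 (adjusted p = 0.000664, range 0.000664 to 0.0759), or in OE, where the call was then lost (adjusted p = 0.449, the highest of its alternatives).

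Of 24 unconventional myosins, which work without filaments of their own, 23 had values, with 6 higher and 8 lower in KD, and 4 higher and 8 lower in OE. With each library shifted to the same median, 1 was called higher in OE and 8 lower. MYO10, the motor of filopodial tips, fell, with differences of -0.55 in KD and -0.35 in OE (adjusted p = 1.9e-15 and 3.8e-10 from limma). MYO1E, which links membranes to actin, fell, with differences of -0.49 in KD and -0.10 in OE (adjusted p = 1.2e-23 and 1.4e-06). MYO19, the myosin of mitochondria, fell, with differences of -0.061 in KD and -0.18 in OE (adjusted p = 0.00385 and 3.4e-10 from limma). Other genes overlap 12.7% of its exons. Among those higher in OE were MYO1D, MYO9A and MYO15A.

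**Figure D5:**
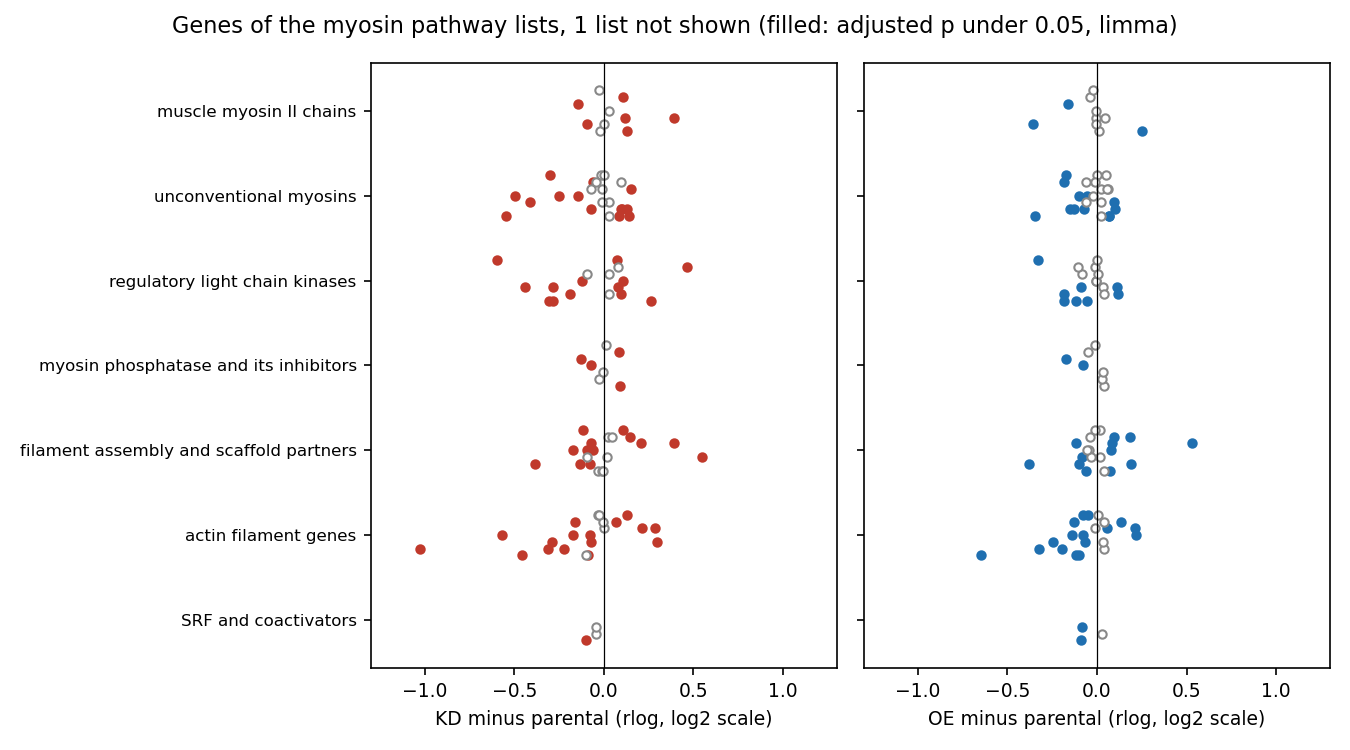
Difference from parental (rlog, log2 scale, horizontal axis) of the genes of the lists described above (rows), 1 of the 8 lists not being shown, for KD on the left and OE on the right, 1 circle per gene, filled where limma gave an adjusted p under 0.05. Filled circles lie on both sides of 0 in most lists, and few lie beyond 0.5 in size.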

How the data were processed

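Total RNA from 9 libraries was prepared with a TruSeq kit that does not mark strand and read in pairs of 150 bases. Per the labels and the study's methods, the authors trimmed reads with cutadapt (quality under 20 and length under 36 discarded), mapped them to GRCh38 with HISAT2, counted genes with featureCounts of Subread, removed genes with a total count under 10, and deposited regularized log2 values, a transform of DESeq2. Tool versions were not given in the sources used here. The deposited values were used as they stand, and 22195 of 22290 gene IDs matched a symbol in GENCODE 44. Without strand, reads of overlapping and antisense genes cannot be told apart.

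Groups were taken from the labels. A model with 1 mean per group was fitted to all 9 libraries with limma 3.58.1 in R 4.3.3, with a variance trend on the level and Benjamini-Hochberg adjustment over 22290 genes, and genes were called at an adjusted p of 0.05. The procedure was tested on simulated data. The members and lists were chosen with earlier results of these data known. KD minus parental and OE minus KD were described without a test for the members. Level per length was rlog minus the log2 of the exonic length in kilobases. Neighbours had a midpoint within 1 Mb and a mean rlog no lower than 5. Block medians were taken in blocks of 20 Mb over genes whose mean rlog was 8 or more. The plan named protein identity, and identity of coding bases in an alignment was used in its place, since no protein sequences were used here. No other column of per-sample values was used.

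Named genes were the members, TRAP1, a fixed set (MYH11, MYL6B, MYLK, ROCK1, ROCK2, PPP1R12A, PPP1CB and SRF among others), in each list and comparison the 2 called genes with the largest absolute difference at a mean rlog of at least 5, the 5 profiles closest to MYH14, and in marker lists the most abundant gene and those at a mean rlog under 3. Other genes that complete a count of 5 or fewer, with the other markers and the neighbours of MYH14, were named after their values were seen. A few genes that count in the lists, and 1 of the lists, are not reported here by name. Alternatives were other variance settings, a filter on low values, only the groups compared, the replicate number as a block, other scalings, block medians, other lengths and windows, and leaving out each library.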

Additional observations from a re-analysis of the deposited data

How the results depend on the processing

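The calls of MYH9 and MYH10 in OE held under every alternative except a size over 0.5, which neither difference reached. With libraries left out in turn, MYH9 ranged from -0.31 to -0.28, MYH10 from 0.37 to 0.39, MYH14 from -0.035 to 0.011, MYL6 from -0.050 to 0.045, MYL12A from -0.037 to -0.0030, MYL12B from -0.023 to -0.0040 and TRAP1 from -0.012 to 0.042 in OE and 0.13 to 0.15 in KD. The sign turned for MYL6 without PAR replicate 1 (0.045, adjusted p = 0.0827 from limma), for MYH14 without PAR replicate 3 or OE replicate 1 (0.011 each), for TRAP1 in OE without OE replicate 3 (-0.012) and for MYH15 in OE without PAR replicate 1 (0.0066), PAR replicate 3 (0.011), OE replicate 2 (0.010) or OE replicate 3 (0.0016), all uncalled. In KD, without a test, MYH9 ranged from -0.32 to -0.30, MYH10 from 0.52 to 0.54, MYH14 from -2.32 to -2.24, MYL6 from 0.066 to 0.16, MYL12A from -0.13 to -0.095 and MYL12B from -0.033 to -0.011. The genes called were 11106 to 12030 in KD and 6857 to 7762 in OE, and in the pathway lists 82 to 89 and 62 to 72.

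Further sign changes were, with each library shifted to the same median, TRAP1 in OE (-3.9e-05); under quantile normalization, MYL6 (0.0028), MYL12B (0.0035) and CIT (0.0010) in OE; and with 20-Mb block medians removed, MYH14 in OE (0.021), MYH7B (0.19), ROCK1 (-0.034) and PPP1R12A (0.038) in KD. That removal also brought TRAP1 in OE past the threshold (0.064). The cause was not tested. Counting only genes called and over 0.5 in size, a setting chosen after seeing the data, left 1110 genes in KD and 200 in OE, and 9 and 3 in the pathway lists.

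With the longest transcript as length, the heavy chain shares in parental, KD and OE were 78.0%, 71.0% and 70.2% for MYH9, 17.0%, 27.8% and 24.4% for MYH10 and 4.99%, 1.16% and 5.46% for MYH14, and MYL12B made up 75.7%, 76.9% and 75.8% of the regulatory light chains. Within 2 Mb the medians of the neighbours were -0.044 in KD and -0.031 in OE for MYH9, 0.10 and 0.0099 for MYH10, 0.025 in KD for MYH14 and 0.012 in OE for MYL6, which turned sign.

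Deviations of libraries with the same replicate number correlated weakly (-0.071 to 0.14). Between KD and OE the correlations were 0.116, 0.0231 and 0.140, and in pairs with a parental library they lay between -0.071 and 0.0127. Such values cannot show whether these libraries shared more than a number. With the replicate number as a block, 12015 genes were called in KD and 7854 in OE, 87 and 72 in the pathway lists, and TRAP1 was at 0.14 in KD and 0.018 in OE. Depth is unknown from these values, so counting error could not be given.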

Other observations

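To the right of MYH14 on chromosome 19, picked after the values were seen and given without a test, genes lower in KD lay among genes that were not. LRRC4B, which codes for a synaptic adhesion protein, 293 kb from MYH14, had rlog values of 9.65, 9.69 and 9.71 in the parental libraries, 8.60, 8.58 and 8.59 in KD, and 9.88, 9.87 and 9.91 in OE. All its libraries labelled KD lay below and all labelled OE above the parental ones. SYT3 (381 kb, a synaptotagmin gene) and C19orf81 (405 kb) differed by -0.63 and -0.26 in KD and by 0.14 and 0.13 in OE. Closer to MYH14 than LRRC4B, NR1H2 (0.058), POLD1 (0.011), EMC10 (0.014) and JOSD2 (0.15) were close to or above parental in KD.

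Chromosome 19 held 1304 of the genes in the table (5.85%) and 20 of the 50 genes with the largest decreases in rlog in KD. This share was counted after the values were seen and was not tested.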
